A study of Rattus norvegicus with 36 samples.

Results

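The genes described here are the G1 cyclins (Ccnd1, Ccnd2, Ccnd3, Ccne1 and Ccne2), the cyclin-dependent kinases that they switch on (Cdk2, Cdk4 and Cdk6) and a pair of inhibitors of these kinases (Cdkn1b and Cdkn2c). They are a list of names with no threshold on a measured value, and 10 of 10 were found among the 24275 genes of the count tables, each with 1 identifier. H9C2, a line of rat cardiac myoblasts, received 25 nM of the mimic control (MC), of a miR-125b mimic, or of a mimic of 1 of 4 isomiRs that differ from it at the 3′ end (named Trim AGU, Trim AG, Trim A and Plus A). After 24 h of transfection the cells spent 24 h either in hypoxia, which was less than 0.2% O2 in low-glucose DMEM without serum, or in normoxia in fresh DMEM. The medium changed together with the oxygen, so the parts of serum, glucose and oxygen in a difference between hypoxia and normoxia cannot be told apart. The counts came from 33 of the 36 libraries, 3 for each of 11 groups, and Normoxia MC was not analysed here at the level of single libraries. In bulk RNA, fewer cells in a phase of the cycle and less RNA per cell cannot be told apart.

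Cells pass from G1 into S phase when the retinoblastoma protein is phosphorylated and lets go of the E2F transcription factors. The D cyclins, with CDK4 or CDK6, start this phosphorylation in response to growth factors in serum, and the E cyclins, with CDK2, carry it on just before DNA replication begins. The INK4 inhibitor encoded by Cdkn2c binds CDK4 and CDK6, and the inhibitor encoded by Cdkn1b binds cyclin E and CDK2 complexes and restrains them. Ccne1 and Ccne2 are themselves known E2F targets, and cardiac myoblasts that differentiate leave the cycle from G1.

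The mimics differ only at the 3′ end and are printed here because each comparison below is between them. Capitals mark the seed (bases 2 to 8), which pairs with target mRNAs and is shared by all 5. The mature sequence is that of RefSeq at chr11:29732588-29732609 (plus strand) of GRCr8, and the isomiRs were derived from it by adding or removing the bases in their names. They are 22, 23, 21, 20 and 19 bases long in the order printed. The labels number the shortened mimics Trim 1, Trim 2 and Trim 3, and these were read as Trim A, Trim AG and Trim AGU. No label states this, but a figure legend of the study uses T1, T2 and T3 for them in that order, as the count columns do.
miR-125b: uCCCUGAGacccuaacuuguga
Plus A: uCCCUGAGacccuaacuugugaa
Trim A: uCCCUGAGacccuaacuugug
Trim AG: uCCCUGAGacccuaacuugu
Trim AGU: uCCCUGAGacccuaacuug

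The libraries held 28361216 to 42672584 counts, and the lowest count of any of the 10 genes in a library was 234 (Ccne2). All Hypoxia Trim AG libraries were deeper than the rest, at 39940087 to 42672584 counts. No library of another group held more than 34505938. Depth thus goes with that group, and its part in the results was not tested. The myoblast genes Myod1, Cdh15 and Tnnc1 were present in every library (at least 17.1, 190.4 and 92.1 CPM, counts scaled to 1000000 per library), whereas Des reached no more than 4.98 CPM and Cdh2 no more than 0.378 CPM. Of the fibroblast genes the collagens were high, with Col1a1 at 5403 to 27702 CPM. Thy1 reached 260.7 CPM and Pdgfra no more than 0.846 CPM. The fibroblast genes summed further on are Col1a1, Col1a2, Col3a1, Pdgfra and Thy1, so the collagens make up nearly all of the sum. The leukocyte gene Ptprc and the epithelial genes Epcam and Cdh1 stayed below 0.3 CPM. The epithelial gene Krt18 reached 0.515 CPM, and the leukocyte genes Cd68 and Itgam reached 2.43 and 1.55 CPM. A few libraries stood apart. In normoxia, the libraries labelled Plus A replicate 1 and miR-125b replicate 1 went against their labels: Cav1, chosen after its values were seen, was at 268.9, 98.0 and 98.3 CPM in Plus A and at 102.3, 282.0 and 262.9 CPM in miR-125b, against 93.9 to 100.2 and 241.2 to 246.2 CPM in hypoxia. Hypoxia Trim AGU replicate 2 differed from the other libraries of its group by a root mean square of 0.923 in log2 CPM, against 0.305 to 0.632 for the rest. Values include these libraries, and wherever leaving them out moved 1 of the 10 genes across the threshold of a test, the value without them is given as well.

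Per kilobase of the gene length listed in the tables, the kinase Cdk4 and the cyclin Ccnd3 had the highest levels, with medians over the 11 group means of 317 and 259 CPM per kb. Ccnd1 followed at 113, Cdkn1b at 104 and Ccnd2 at 76.8 CPM per kb. Cdkn2c (22.7), Cdk2 (20.7), Ccne1 (16.2) and Cdk6 (14.03 CPM per kb) were lower, and Ccne2 was lowest at 5.05 CPM per kb. The length listed for Cdk4 is only 912 bases, which raises its level per kb.

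Within each gene the range across groups was wider for the E cyclins than for the others. The highest group mean was 5.74 times the lowest for Ccne2 and 3.85 times for Ccne1, against 3.03 for Ccnd1, 2.94 for Cdkn2c, 2.34 for Cdk2 and 2.13 for Cdk6. For Ccnd2, Ccnd3, Cdkn1b and Cdk4 it was 1.71, 1.56, 1.46 and 1.45 times. When the 11 groups were ordered by their mean, the libraries of neighbouring groups overlapped in 10 of 10 pairs for Ccnd2, Cdk4 and Cdkn1b, in 8 for Ccnd1, Ccnd3 and Cdk6, in 7 for Cdk2 and Cdkn2c, and in 5 for Ccne1 and Ccne2. The order of Cdk4 and Cdkn1b therefore has no step that exceeds the spread between libraries. For Ccnd2 the overlap at the lowest step rests on Hypoxia Trim AGU replicate 2 (29.5 CPM). Without that library, Normoxia Trim AG (71.8 to 85.4 CPM) lies below every library of the other groups, the next lowest being at 93.7 CPM. For Ccnd1 the steps were between the normoxia and the hypoxia groups and between Hypoxia Plus A and the others.

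**Figure D1:**
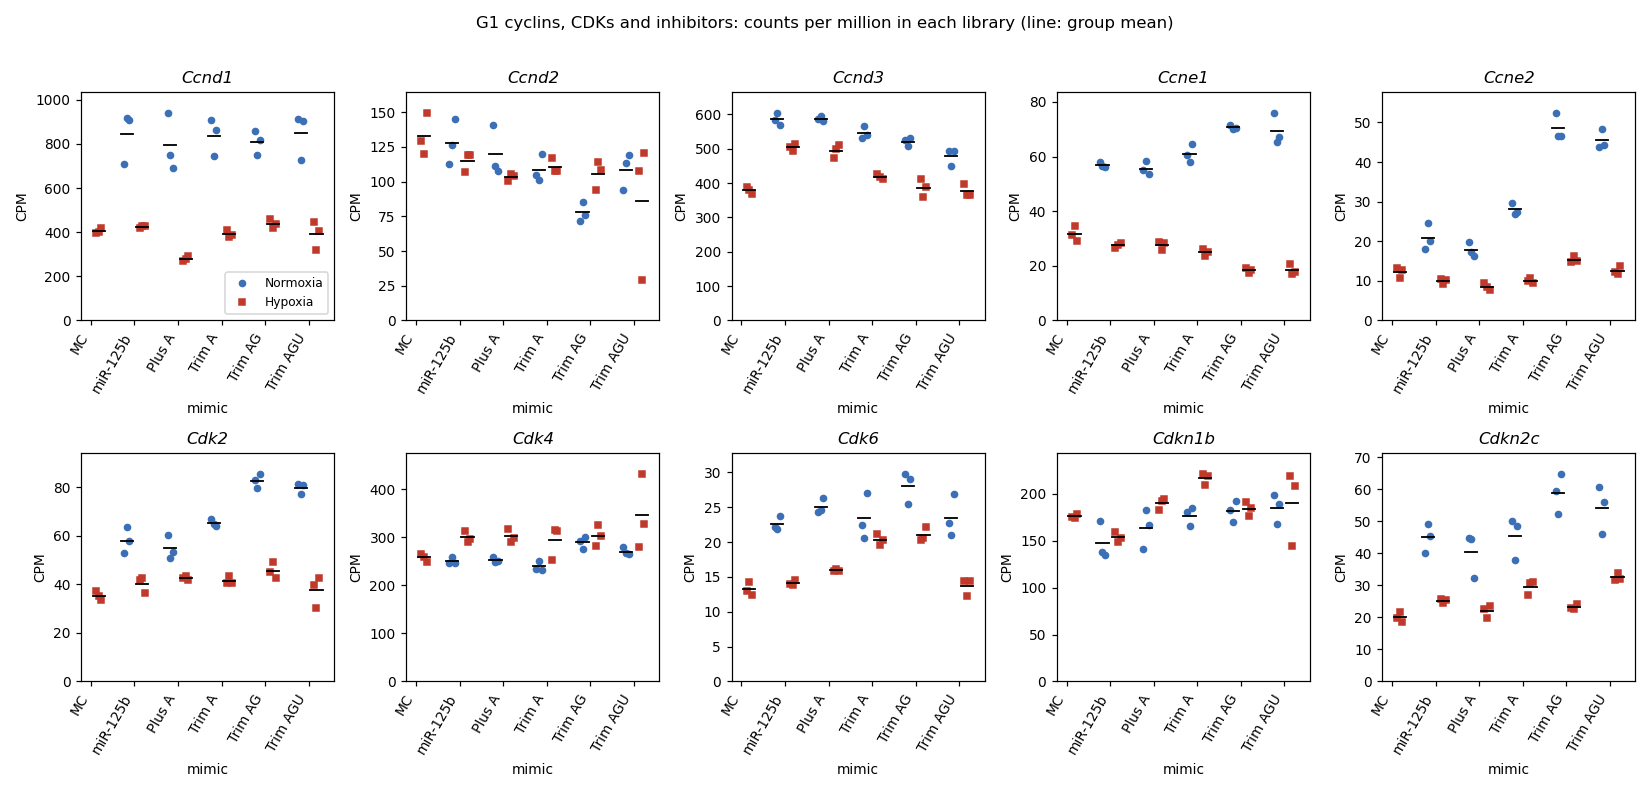
Level of each gene in CPM (counts scaled to 1000000 per library, vertical axis from 0) in every library by mimic, with blue circles for normoxia and red squares for hypoxia; black lines are group means of 3 libraries. Ccnd1, Ccne1, Ccne2 and Cdk2 have all hypoxia libraries below all normoxia libraries, and Ccnd2 in Hypoxia Trim AGU has 1 library at 29.5 CPM.

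The first comparison asks how the G1 genes differed between hypoxia, with its low-glucose medium without serum, and normoxia under each mimic. A gene was called at an edgeR quasi-likelihood adjusted p below 0.05 (Benjamini-Hochberg over all genes tested) and a fold change of at least 1.5. Of the 10 genes, 6, 5, 5, 5 and 6 were called lower in hypoxia, in the order of the printed sequences (miR-125b first and Trim AGU last), against 11.5%, 12.8%, 14.5%, 17.8% and 13.4% of all genes tested. None was called higher. At any fold, 9, 9, 7, 8 and 6 of the 10 passed the adjusted p, against 50.8%, 49.2%, 47.6%, 54.7% and 30.2% of all genes. Ccnd1, Ccne1, Ccne2 and Cdkn2c were called lower under 5 of 5 mimics, Cdk2 under 4 and Cdk6 under 3. Ccnd2, Ccnd3, Cdk4 and Cdkn1b were called under none. The median log2 fold change of the 10 genes lay between -0.72 and -0.58, against 0.00 to 0.02 for all genes tested.

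Ccnd1 (chr1:218090750-218100325, minus strand; the tables name no build) encodes the D cyclin most closely tied to growth factors. With miR-125b it was at 711, 916 and 907 CPM in normoxia and at 419, 426 and 426 CPM in hypoxia. The hypoxia libraries lie together and far below all of normoxia. It fell by 1.08 on the log2 scale (SE 0.084, adjusted p = 7.9e-06), and by 1.19 without Normoxia miR-125b replicate 1. With Plus A it went from 940.2, 751 and 689.7 CPM to 269.7, 280.4 and 291 CPM. This fall was 1.61 on the log2 scale, or 3.05-fold (adjusted p = 1.5e-06), and 1.49 without Normoxia Plus A replicate 1. Under the shortened mimics it fell by 0.88 (Trim AG), 1.09 (Trim AGU) and 1.17 (Trim A).

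The other D cyclins moved little. Ccnd3 (chr9:15404822-15410943, minus strand), the D cyclin that is prominent in differentiating muscle, was at 570.1 to 604 CPM in normoxia and 494 to 514 CPM in hypoxia with miR-125b. Its log2 fold changes were -0.46 to -0.30 over the 5 mimics. They passed the adjusted p in 4 of them, but stayed under 1.5-fold, and with Trim AGU the adjusted p was 0.11 (0.041 without Hypoxia Trim AGU replicate 2). Ccnd2 (chr4:159674885-159697207, minus strand) did not keep 1 direction: it fell by 0.24 with miR-125b (adjusted p = 0.040) and by 0.32 with Plus A (adjusted p = 0.014), but was higher in hypoxia by 0.45 with Trim AG (adjusted p = 0.0054). With Trim AG it was at 71.8, 85.4 and 76.1 CPM in normoxia and at 94.2, 114 and 108 CPM in hypoxia, without overlap. With Trim AGU the value was -0.33 with a 95% interval of -1.29 to 0.62, and 0.05 without Hypoxia Trim AGU replicate 2.

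The E cyclins fell under all 5 mimics. Ccne1 (chr1:94485832-94494980, minus strand) was at 58.2, 56.5 and 56.2 CPM in normoxia and at 26.5, 27.7 and 28.4 CPM in hypoxia with miR-125b. It was at 71.4, 70.2 and 70.3 CPM against 19.3, 17.3 and 18.4 CPM with Trim AG. No hypoxia library of any mimic reached the lowest normoxia library (34.5 against 53.4 CPM). The fall was 1.13 (SE 0.056, adjusted p = 6.0e-07) with miR-125b and 1.94 (SE 0.075, adjusted p = 6.4e-07) with Trim AG on the log2 scale. It was 1.87 with Trim AGU, 1.36 with Trim A and 1.11 with Plus A. Trim AG and Trim AGU thus had a normoxia to hypoxia ratio of 3.84 and 3.66, against 2.19 for miR-125b.

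Ccne2 (chr5:24434872-24446406, plus strand), the other E cyclin, was at 18.1, 24.7 and 20.1 CPM in normoxia and at 10.4, 9.29 and 10.1 CPM in hypoxia with miR-125b. With Trim AG it was at 52.4, 46.6 and 46.5 CPM against 14.7, 16.2 and 14.95 CPM. The normoxia level was thus much higher with Trim AG, and the hypoxia level only somewhat higher. It fell by 1.15 (SE 0.12, adjusted p = 4.8e-05) with miR-125b and by 1.82, 1.66, 1.56 and 1.18 with Trim AGU, Trim AG, Trim A and Plus A.

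Among the kinases, Cdk2 (chr7:3124954-3132457, minus strand), the partner of the E cyclins, fell, whereas Cdk4 (chr7:70349863-70352418, plus strand), the main partner of the D cyclins, did not. Cdk2 was at 52.8, 63.4 and 57.8 CPM in normoxia and at 41.9, 42.6 and 36.3 CPM in hypoxia with miR-125b. It fell by 0.61 (adjusted p = 0.00024), 1.05, 0.85 and 0.73 on the log2 scale with miR-125b, Trim AGU, Trim AG and Trim A, and by 0.47 (adjusted p = 0.00041, under 1.5-fold) with Plus A. With miR-125b the fall is close to 1.5-fold: it was 0.54 without Hypoxia miR-125b replicate 3 and 0.55 without Normoxia miR-125b replicate 2. Cdk4 was higher in hypoxia by 0.07 to 0.42, which passed the adjusted p with miR-125b (0.17) and Plus A (0.15, adjusted p = 0.044; 0.053 without Normoxia Plus A replicate 1).

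Cdk6 (chr4:27785647-27966398, minus strand), the other partner of the D cyclins, was at 22.2, 21.8 and 23.8 CPM in normoxia and at 13.96, 13.8 and 14.6 CPM in hypoxia with miR-125b. The groups do not overlap, and the fall was 0.76 (SE 0.072, adjusted p = 2.7e-05). It was 0.76 with Plus A and 0.74 with Trim AGU (adjusted p = 0.013), but only 0.41 with Trim AG (adjusted p = 0.0040). With Trim A the value was -0.28 (adjusted p = 0.061) and the groups overlap. With Trim AGU the adjusted p rose to 0.052 and 0.076 without Normoxia Trim AGU replicate 1 and replicate 3.

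The inhibitors parted. Cdkn2c (chr5:129347732-129352886, minus strand) was at 40.2, 49.2 and 45.5 CPM in normoxia and at 25.6, 24.4 and 25.5 CPM in hypoxia with miR-125b. It fell by 0.92 (SE 0.077, adjusted p = 1.3e-05) there, by 1.33 with Trim AG, by 0.99 with Plus A and by 0.69 with both Trim A and Trim AGU. With Trim AGU the adjusted p of 0.017 rose to 0.068 to 0.074 when Hypoxia Trim AGU replicate 3, Normoxia Trim AGU replicate 1 or Normoxia Trim AGU replicate 3 was left out. Cdkn1b (chr4:168689163-168693964, plus strand) was at 171, 138 and 135 CPM in normoxia and at 159.6, 149 and 152 CPM in hypoxia with miR-125b. Its log2 fold changes of -0.03 to 0.21 passed the adjusted p with Trim A alone (0.21, adjusted p = 0.039). The 95% intervals of the difference were -0.23 to 0.17 for miR-125b and -0.29 to 0.43 for Trim AGU, the widest.

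**Figure D2:**
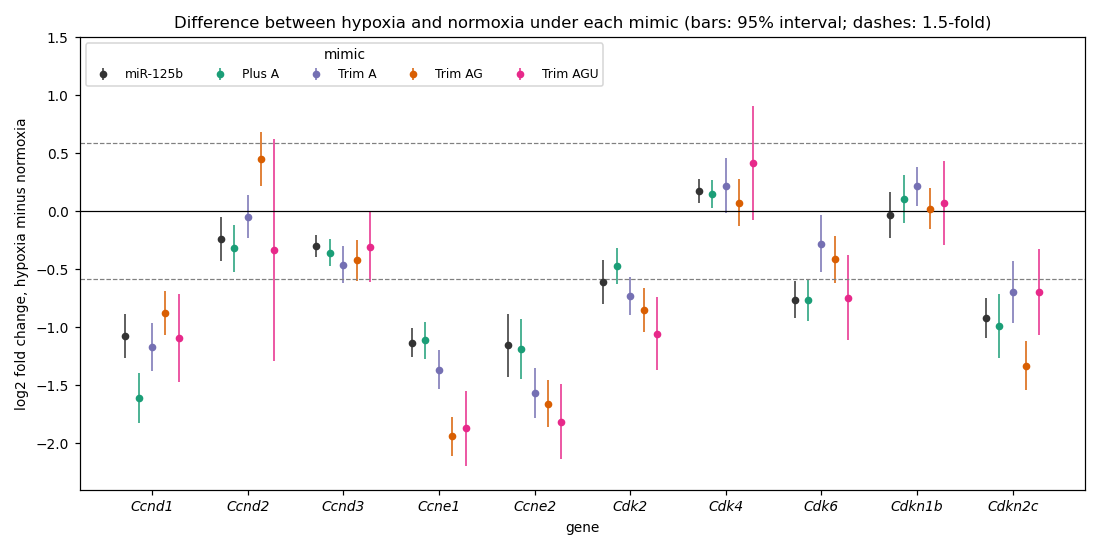
Log2 fold change of hypoxia minus normoxia (vertical axis) for each gene under 5 mimics; points are edgeR estimates from 3 against 3 libraries, bars are 95% intervals and dashes mark 1.5-fold. Ccne1 and Ccne2 lie between -1.94 and -1.11, Ccnd1 between -1.61 (Plus A) and -0.88 (Trim AG), and Cdk4 and Cdkn1b between -0.03 and 0.42.

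The rest of the pathway was read from lists of genes. Of 14 E2F targets of S phase entry, 14, 14, 13, 14 and 13 were called lower in hypoxia, again in the order of the printed sequences. Of all genes tested, 11.5% to 17.8% were called lower, which is the background for each list here. The list medians were -1.98 to -1.59, against 0.00 to 0.02 for all genes. Rrm2, a subunit of the enzyme that makes deoxyribonucleotides, fell by 2.56 with miR-125b, and Tk1 (thymidine kinase) fell by 2.47. Of 9 mitosis genes tested, 9 were called lower under each mimic. Of 22 other genes of the G1/S switch tested, 6 to 8 were called lower and 2 or 3 higher. The share of all genes called higher is not given here, so nothing is read from the 2 or 3. Among them Rbl1, a relative of the retinoblastoma protein, fell by 1.26 with miR-125b and by 2.40 with Trim AGU, and E2f1, the E2F that starts S phase, fell by 1.08 with miR-125b. Cdkn1a, a kinase inhibitor induced by stress, rose by 0.93 with miR-125b, and Myc, a growth factor response gene, rose by 1.57 with Trim AG. The summed level of 5 fibroblast genes was 36729 to 40887 CPM in normoxia and 42224 to 44492 CPM in hypoxia with miR-125b, and 23176 to 26185 against 8878 to 18358 CPM with Trim AG. Its part in these results was not tested.

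RefSeq promoters (300 bases, 250 before and 50 after the start, GRCr8) were searched for the E2F motifs TTTGGCGC and TTTCGCGC on both strands, since the E2F targets moved together. A motif was present in 265 of 33469 promoters (0.792%) and in 7 of the 10 E2F targets with a promoter listed, which had been chosen as E2F targets. It was present in 2 of 18 other genes of the G1/S switch and in 1 of 9 mitosis genes. Of the G1 genes, 0 of the 6 listed had it (Ccnd3, Ccne1, Cdk2, Cdk4, Cdkn1b and Cdkn2c). With so rare a motif and so few genes, nothing about E2F control is read from the 0 of 6. The lists were counted by gene and the background by promoter. The windows below are of genes that fell in hypoxia, on the strand of the gene and with the motif in capitals, and in Pola1 the motif is on the other strand. They lie at chr9:30733715-30733744, chr12:22163212-22163241, chr9:120776102-120776131 and chrX:62342509-62342538, each on the minus strand.
Mcm3: acttgggaagtTTTCGCGCcagggaggagt
Mcm7: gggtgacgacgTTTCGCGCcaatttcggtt
Tyms: aaggtgcgggtTTTGGCGCcgactacactg
Pola1: gtcatcacaggGCGCCAAAtgcagtcccgc

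The second comparison asks what each mimic did against MC in hypoxia, and all 5 comparisons share the MC libraries. Of the 10 genes, 0 were called with miR-125b (background 21.9% of genes called) and 0 with Plus A (24.8%). With edgeR, 9 and 8 of them had an unadjusted p below 0.05, and DESeq2 also called 0 in both. For each of the shortened mimics 2 were called, against 28.1% (Trim A), 37.2% (Trim AG) and 23.8% (Trim AGU) of all genes. At any fold, 7, 8, 6, 6 and 2 of the 10 passed the adjusted p in the order of the printed sequences, against 59.5%, 56.6%, 52.1%, 59.4% and 29.9%. With Trim AGU the 2 became 5 without Hypoxia Trim AGU replicate 2, when Cdk2 (higher by 0.30, adjusted p = 0.015), Cdk4 (0.32, adjusted p = 0.019) and Cdkn1b (0.36, adjusted p = 0.0032) also passed. The calls were Cdk6 (Trim A and Trim AG, higher), Cdkn2c (Trim A and Trim AGU, higher) and Ccne1 (Trim AG and Trim AGU, lower). These shares are near or below the background, and nothing is read from the number of calls. The summed fibroblast genes were at 28349 to 29427 CPM with MC, 42224 to 44492 CPM with miR-125b and 8878 to 18358 CPM with Trim AG, and their part in the results below was not tested.

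Ccne1 was at 31.3, 34.5 and 29.2 CPM with MC, at 19.3, 17.3 and 18.4 CPM with Trim AG and at 20.6, 17.0 and 17.9 CPM with Trim AGU. Neither mimic overlaps MC. Ccne1 fell by 0.73 (SE 0.089, adjusted p = 0.00016) with Trim AG. With Trim AGU it fell by 0.64 (SE 0.12, adjusted p = 0.012), and the adjusted p was 0.062 and 0.073 without Hypoxia MC replicate 1 and replicate 2. Without Hypoxia Trim AGU replicate 3 the fall was 0.58, and without Hypoxia Trim AGU replicate 2 it was 0.64. With Trim A it fell by 0.30 (adjusted p = 0.018), and with miR-125b and Plus A the value was -0.17 (adjusted p = 0.054 and 0.085).

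Ccne2 did not follow Ccne1. It was at 13.2, 10.6 and 12.8 CPM with MC, at 9.36, 8.40 and 7.57 CPM with Plus A and at 14.7, 16.2 and 14.95 CPM with Trim AG. Plus A thus lies below MC and Trim AG above it. It fell by 0.51 with Plus A (adjusted p = 0.0054) and rose by 0.39 with Trim AG (adjusted p = 0.015), both under 1.5-fold.

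Cdk6 was at 13.0, 14.2 and 12.4 CPM with MC, at 21.2, 19.5 and 20.3 CPM with Trim A and at 20.3, 20.5 and 22.2 CPM with Trim AG. Both lie well above MC. It rose by 0.67 (SE 0.090, adjusted p = 0.00051) with Trim A and by 0.73 (SE 0.094, adjusted p = 0.00021) with Trim AG. With miR-125b the value was 0.13 (adjusted p = 0.20), with Plus A 0.29 (adjusted p = 0.013) and with Trim AGU 0.19 (adjusted p = 0.31). The 3 shortened mimics thus gave 0.67, 0.73 and 0.19 for 1, 2 and 3 bases removed.

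The inhibitor Cdkn2c was at 19.7, 21.7 and 18.6 CPM with MC, at 26.9, 30.8 and 31.2 CPM with Trim A and at 31.6, 33.8 and 32.0 CPM with Trim AGU. It rose by 0.84 (SE 0.13, adjusted p = 0.0059; 0.75 without Hypoxia Trim AGU replicate 2) with Trim AGU and by 0.61 (SE 0.097, adjusted p = 0.0011) with Trim A. The Trim A value was under 1.5-fold, at 0.56 to 0.57, without Hypoxia MC replicate 3, Hypoxia Trim A replicate 2 or Hypoxia Trim A replicate 3. With miR-125b the rise was 0.37 (adjusted p = 0.00074) and with Trim AG 0.28 (adjusted p = 0.021), which are the same direction with smaller sizes.

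The D cyclins differed between mimics. Ccnd3 was at 388, 379 and 369 CPM with MC and at 504, 494 and 514 CPM with miR-125b, a rise of 0.45 (SE 0.032, adjusted p = 4.5e-07). The rise was 0.41 with Plus A (adjusted p = 2.4e-05) and 0.19 with Trim A (adjusted p = 0.035), and the value was 0.09 with Trim AG and 0.13 with Trim AGU. Ccnd1 was at 396, 402 and 421 CPM with MC and fell by 0.51 with Plus A (adjusted p = 5.8e-06). Cdk4 rose by 0.25 with miR-125b (adjusted p = 0.00016), and Cdk2 rose by 0.43 with Trim AG (adjusted p = 0.0022). Cdkn1b fell by 0.16 with miR-125b (adjusted p = 0.0017) and rose by 0.34 with Trim A (adjusted p = 0.0019), each under 1.5-fold.

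**Figure D3:**
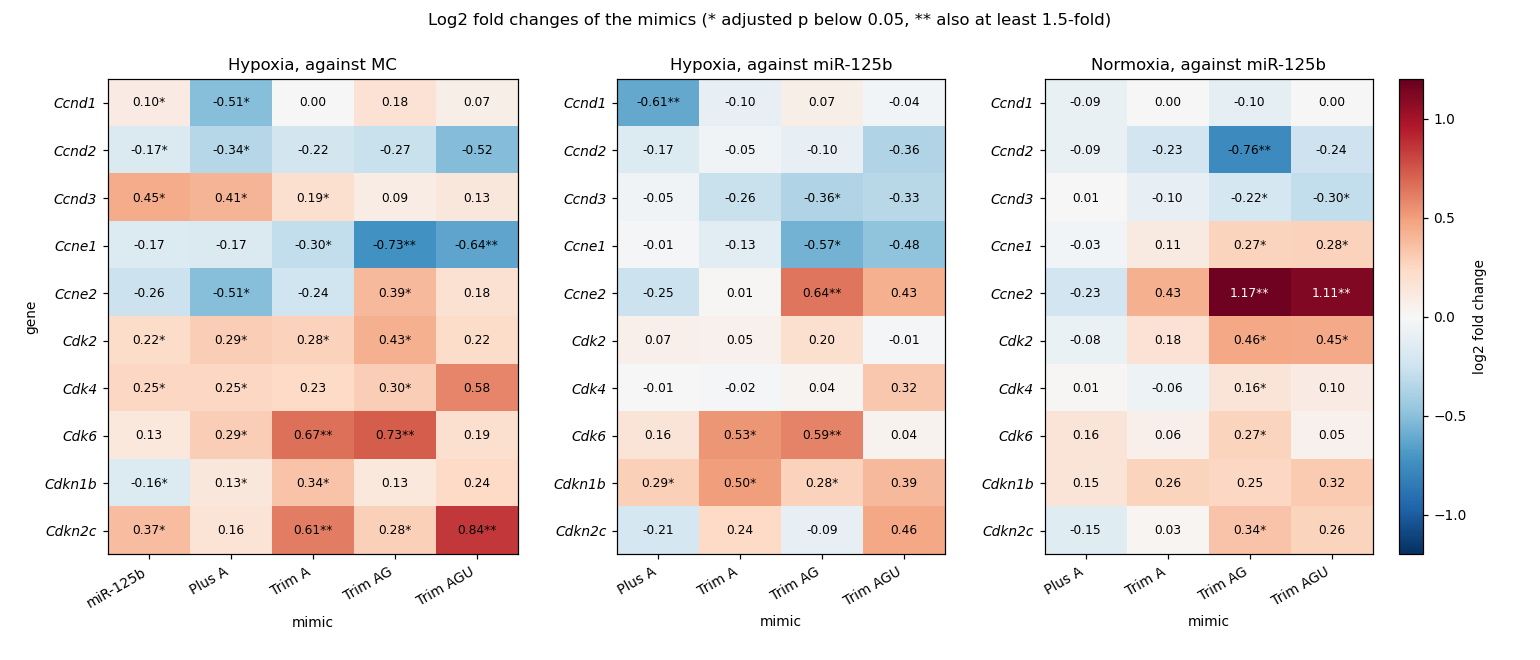
Log2 fold changes of each gene (rows) for each mimic (columns) against MC in hypoxia, against miR-125b in hypoxia and against miR-125b in normoxia, each from 3 against 3 libraries; 1 asterisk marks an adjusted p below 0.05 and a pair of asterisks also a fold of at least 1.5. Ccne2 in normoxia with Trim AG (1.17) and Trim AGU (1.11) holds the largest values, and Ccne1 is negative in hypoxia and positive in normoxia with both.

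The third comparison asks where an isomiR differed from miR-125b itself at a matched dose, time and oxygen level. There were 8 such pairs, 4 in hypoxia and 4 in normoxia, which share the miR-125b libraries of their oxygen level. In hypoxia 1, 0, 2 and 0 genes were called (Plus A first, then the isomiRs shortened by 1, 2 and 3 bases), against 2.03%, 0.873%, 19.3% and 3.75% of all genes. In normoxia the counts were 0, 0, 2 and 1 in the same order, against 0.0%, 0.414%, 13.9% and 11.4%. At any fold, 2, 2, 5 and 0 passed the adjusted p in hypoxia (15.9%, 2.19%, 41.4% and 4.15% of all genes) and 0, 0, 8 and 4 in normoxia (0.0%, 1.92%, 38.5% and 25.0%). The 0 for Trim AGU in hypoxia became 5 without Hypoxia Trim AGU replicate 2: Cdkn1b was then higher by 0.51 (adjusted p = 0.0025) and Cdkn2c by 0.37 (adjusted p = 0.014), Ccnd3 was lower by 0.37 (adjusted p = 0.011), and Ccne1 and Ccne2 are given further on. In normoxia, without Normoxia miR-125b replicate 1, Cdkn1b was higher by 0.38 (adjusted p = 0.017) with Trim A, 0.37 (adjusted p = 0.0017) with Trim AG and 0.43 (adjusted p = 0.021) with Trim AGU. With that library its values were 0.26, 0.25 and 0.32, none of which passed. Without it Ccnd1 with Trim AG also passed (lower by 0.21, adjusted p = 0.021), and Cdk4 with Trim AG went from an adjusted p of 0.040 to 0.066. Where edgeR called 0, an unadjusted p below 0.05 was reached by 4 (Hypoxia Trim A), 5 (Hypoxia Trim AGU), 0 (Normoxia Plus A) and 4 (Normoxia Trim A) of the 10 genes, and DESeq2 called 0 in each.

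Plus A differed from miR-125b in Ccnd1. In hypoxia it was at 269.7, 280.4 and 291 CPM with Plus A and at 419, 426 and 426 CPM with miR-125b. The groups lie far apart, and it fell by 0.61 (SE 0.040, 1.53-fold, adjusted p = 7.7e-05). Without Hypoxia Plus A replicate 1 the fall was 0.58, just under 1.5-fold. Cdkn1b rose by 0.29 (adjusted p = 0.0038) in the same pair. In normoxia Ccnd1 was at 940.2, 751 and 689.7 CPM with Plus A and at 711, 916 and 907 CPM with miR-125b, so the groups overlap, with a value of -0.09 (95% interval -0.37 to 0.20, adjusted p = 0.997). Without the libraries labelled replicate 1 of both groups, Ccnd1 fell by 0.32 (adjusted p = 0.012), Ccnd2 fell by 0.29 (adjusted p = 0.043) and Cdkn1b rose by 0.38 (adjusted p = 0.0073), each under 1.5-fold. In the edgeR interaction test of the fourth comparison, the Ccnd1 difference was 0.53 lower in hypoxia than in normoxia (adjusted p = 0.13). It was 0.30 lower (adjusted p = 0.075) without those libraries, so a dependence on oxygen and its medium is not shown.

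Trim A, which lacks a single base, had no called gene at either oxygen level. In hypoxia Cdk6 was higher than with miR-125b by 0.53 (SE 0.077, adjusted p = 0.022) and Cdkn1b by 0.50 (SE 0.060, adjusted p = 0.013). Cdkn1b was at 221, 209.7 and 218 CPM with Trim A and at 159.6, 149 and 152 CPM with miR-125b. The adjusted p of Cdk6 reached 0.14 without Hypoxia miR-125b replicate 2, and that of Cdkn1b reached 0.13 without Hypoxia miR-125b replicate 3. In normoxia the value of Ccne2 was 0.43 (adjusted p = 0.081), and 0.34 (adjusted p = 0.12) without Normoxia miR-125b replicate 1.

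Trim AG, which lacks a pair of bases, differed most in Ccne2. In normoxia Ccne2 was at 52.4, 46.6 and 46.5 CPM with Trim AG, at 43.8, 48.4 and 44.3 CPM with Trim AGU and at 18.1, 24.7 and 20.1 CPM with miR-125b. The libraries of both mimics lie above every miR-125b library. It rose by 1.17 (SE 0.11, 2.25-fold, adjusted p = 5.5e-05) with Trim AG and by 1.11 (SE 0.12, 2.16-fold, adjusted p = 0.00033) with Trim AGU, and by 1.07 and 1.02 without Normoxia miR-125b replicate 1. In hypoxia it rose by 0.64 (SE 0.099, adjusted p = 0.0015) with Trim AG, and by 0.58, under 1.5-fold, without Hypoxia Trim AG replicate 2. With Trim AGU in hypoxia the value was 0.43 (adjusted p = 0.13; 0.046 without Hypoxia Trim AGU replicate 2).

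Ccne1 moved in opposite directions in normoxia and hypoxia. With Trim AG it rose by 0.27 in normoxia (SE 0.049, adjusted p = 0.0025) and fell by 0.57 in hypoxia (SE 0.074, adjusted p = 0.00066). With Trim AGU it rose by 0.28 in normoxia (adjusted p = 0.037; 0.073 without Normoxia miR-125b replicate 1), and in hypoxia the value was -0.48 (adjusted p = 0.064; 0.010 without Hypoxia Trim AGU replicate 2). None of these 4 differences reached 1.5-fold.

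Ccnd2 was lower with Trim AG in normoxia, at 71.8, 85.4 and 76.1 CPM against 112, 127 and 145 CPM with miR-125b. It fell by 0.76 (SE 0.098, 1.70-fold, adjusted p = 0.00034), and by 0.84 without Normoxia miR-125b replicate 1. In hypoxia the value was -0.10 with overlapping groups. Cdk6 was higher with Trim AG in hypoxia by 0.59 (SE 0.081, adjusted p = 0.00082), which was under 1.5-fold without Hypoxia Trim AG replicate 3 (0.56) or Hypoxia miR-125b replicate 2 (0.58). Cdk2 rose in normoxia by 0.46 with Trim AG (adjusted p = 0.00076) and by 0.45 with Trim AGU (adjusted p = 0.0054), and Ccnd3 fell by 0.22 (adjusted p = 0.0063) and 0.30 (adjusted p = 0.018).

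Trim AG and Trim AGU, which differ by a single base, were called alike for Ccne2 in normoxia, but their difference from each other was not tested, so it cannot be said that they act alike. Their intervals against miR-125b were 0.93 to 1.41 for Trim AG and 0.85 to 1.38 for Trim AGU. For Ccnd2 in normoxia they were -0.98 to -0.54 for Trim AG and -0.50 to 0.02 for Trim AGU.

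The genes downstream of the switch were higher with Trim AG and Trim AGU. In normoxia 13 of 14 E2F targets were called higher than with miR-125b with Trim AG and 14 of 14 with Trim AGU, against 7.58% and 6.22% of all genes, with list medians of 1.00 and 1.08. In hypoxia 10 of 14 were called higher with Trim AG and 8 of 14 with Trim AGU (7.85% and 1.83% of all genes), the latter 1 to 3 of 14 without Hypoxia Trim AGU replicate 3 or any 1 of the Hypoxia miR-125b libraries. Cdc6, which loads the replicative helicase, rose by 1.42 and 1.34 in normoxia and by 1.32 and 1.07 in hypoxia with Trim AG and Trim AGU. The mitosis genes were called higher in 9 of 9 in each of these 4 pairs (4 of 9 for Hypoxia Trim AGU without any 1 of the Hypoxia miR-125b libraries). Cenpe, a kinetochore motor, rose by 1.35 (Trim AG) and 1.32 (Trim AGU) in normoxia. With Trim A, 0 of 14 E2F targets and 0 of 9 mitosis genes were called in normoxia (0.414% of all genes), with list medians of 0.38 and 0.41. In edgeR 13 and 9 of them had an unadjusted p below 0.05, and DESeq2 called 1 and 0. In hypoxia Trim A had 1 of 14 and 4 of 9 called, all higher (0.873% of all genes were called in either direction). Without Hypoxia Trim A replicate 3 or any 1 of the Hypoxia miR-125b libraries, both counts were 0. Without Hypoxia Trim A replicate 2 they were 0 of 14 and 1 of 9. The summed fibroblast genes were in normoxia at 36729 to 40887 CPM with miR-125b, 36859 to 38678 CPM with Trim A, 23176 to 26185 CPM with Trim AG and 26014 to 29767 CPM with Trim AGU. In hypoxia they were at 14406 to 27890 CPM with Trim AGU. The libraries of the shortened mimics also differed from each other with gene length: the deviation of a library from the others of its group had a correlation with log2 gene length across genes of -0.24 to 0.31 in hypoxia and -0.24 to 0.23 in normoxia, where both ends are Trim AGU. The part of these measures in the results was not tested.

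Among the other genes of the switch, Cdkn1a fell by 0.78 and Rbl1 rose by 0.98 with Trim AG in normoxia. With Trim AGU they fell by 1.06 and rose by 1.51. In hypoxia the INK4 inhibitor gene Cdkn2b fell by 1.11 with Trim AG, and Skp2, whose product marks the Cdkn1b protein for destruction, rose by 0.90 with Trim AGU. Skp2 was not called without Hypoxia Trim AGU replicate 3 or any 1 of the Hypoxia miR-125b libraries, which left 0 of the 22 genes called, and 4 and 3 were called without Hypoxia Trim AGU replicate 1 and replicate 2. Plus A had 0 of these 22 genes called at either oxygen level, 1 E2F target in hypoxia (Mcm3, lower by 0.82) and 0 in normoxia. Of all genes, 2.03% were called in hypoxia and 0.0% in normoxia, so nothing is read from the 0 in normoxia. In hypoxia at any fold, 11 of 14 E2F targets, 7 of 9 mitosis genes and 5 of these 22 genes passed the adjusted p. Of all genes, 15.9% did. The list medians were -0.47, -0.35 and -0.03. Leaving out any 1 library of Hypoxia Plus A or Hypoxia miR-125b made the count of E2F targets called in hypoxia 2 to 4 of 14, all lower. Without the libraries labelled replicate 1 of both Normoxia Plus A and Normoxia miR-125b, 2 of 14 E2F targets were called in normoxia, both lower. The median of that list went from -0.11 to -0.36.

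The fourth comparison tests directly, with an interaction term over 12 libraries, whether the difference of an isomiR from miR-125b was the same in hypoxia and normoxia. This term carries the change of medium as well as that of oxygen. It called 0, 0, 2 and 1 of the 10 genes for Plus A and the isomiRs shortened by 1, 2 and 3 bases, against 0.0193%, 0.605%, 11.3% and 0.966% of all genes. At any fold, 0, 0, 4 and 1 passed the adjusted p (0.0385%, 0.811%, 22.7% and 0.966%). For Plus A and Trim A, 1 and 3 genes had an unadjusted p below 0.05 in edgeR, and DESeq2 called 0. Ccne1 with Trim AG had the smallest p of the 10 genes: its difference from miR-125b was 0.85 lower in hypoxia than in normoxia on the log2 scale (SE 0.082, adjusted p = 3.8e-05), and it was called without any 1 of the 12 libraries.

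For Ccnd2 with Trim AG the interaction was 0.65 (SE 0.15, adjusted p = 0.0078). It was under 1.5-fold without Hypoxia Trim AG replicate 2 (0.58) or Normoxia miR-125b replicate 3 (0.56). Ccne2 (-0.54, adjusted p = 0.021) and Cdkn2c (-0.45, adjusted p = 0.019) passed the adjusted p alone. For Ccne1 with Trim AGU the interaction was -0.73 (SE 0.13, adjusted p = 0.025), the same sign as with Trim AG. The adjusted p was 0.057 to 0.098 when any 1 of 9 of the 12 libraries was left out (Hypoxia Trim AGU replicate 3, Normoxia Trim AGU replicates 1 and 3, and every miR-125b library), and 0.0052 without Hypoxia Trim AGU replicate 2. Without that library Ccne2 was also called (-0.70, adjusted p = 0.036).

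**Figure D4:**
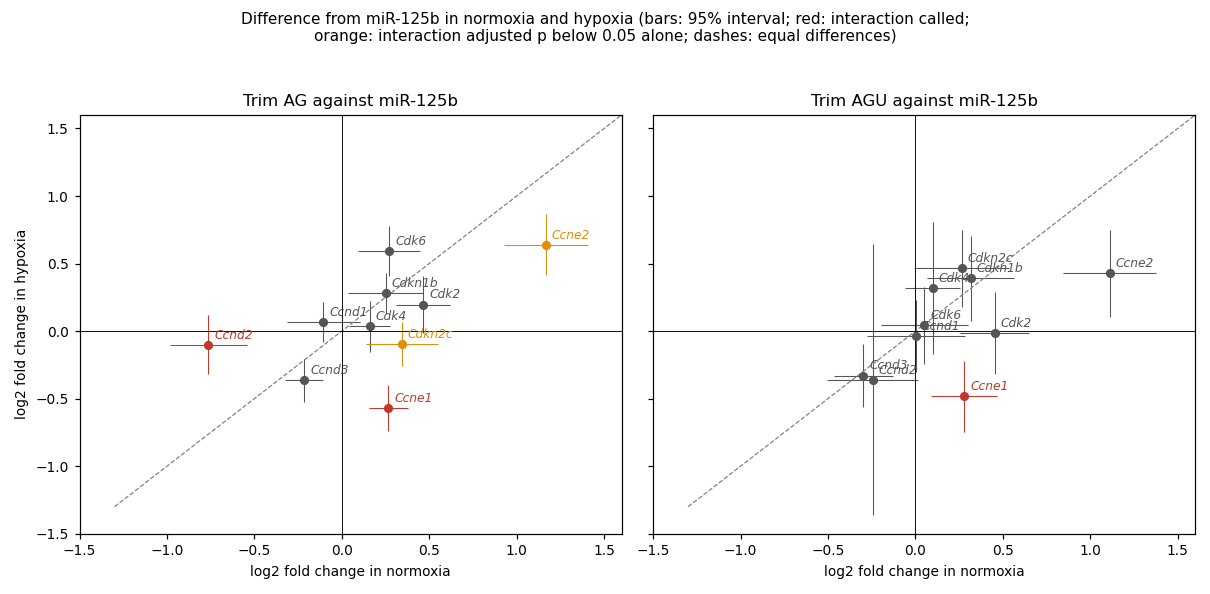
Difference from miR-125b on the log2 scale in normoxia (horizontal axis) and hypoxia (vertical axis) for Trim AG and Trim AGU; bars are 95% intervals, dashes mark equal differences, red marks a called interaction and orange an adjusted p below 0.05 alone. Ccne1 sits at 0.27 and -0.57 for Trim AG and at 0.28 and -0.48 for Trim AGU, far below the dashes.

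Over the 11 group means of log2 CPM the genes fell into those that went together and those that did not, given here as a description: 5 of the groups are in normoxia and 6 in hypoxia, and the values share that difference. Pearson's r was 0.94 for Ccne2 with Cdk2, 0.90 for Cdk2 with Cdkn2c and 0.88 for Ccnd1 with Ccne1. Cdk4 ran against most of the others, with -0.73 against Ccne1. Among 11200 protein coding genes that averaged 1 CPM or more, the pattern of Ccne2 was most like that of Rfc5 (0.997), a subunit of the replication clamp loader, and Rpa1 (0.994), which coats single-stranded DNA. Cdk2 was most like Dnmt1 (0.993), the maintenance DNA methyltransferase. Ccne1 was most like Lss (0.991) and Srebf2 (0.990), an enzyme and a regulator of sterol synthesis, and Ccnd1 was most like Thy1 (0.981).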

How the data were processed

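Total RNA of H9C2 cells was sequenced from poly-A selected, non-stranded libraries, and reads of overlapping or antisense genes cannot be told apart. The authors deposited raw counts per gene for each library, and HISAT2 and StringTie are named in the submitters' processing notes with no version. The genome build is not given in the sources used here. The tables also list a gene length, used for CPM per kb, and 1 table holds the authors' group means, deposited as a signal whose scale is not stated. Fold changes and p-values of the authors' own comparisons (DESeq2 1.20.0) are also in the tables and were not used.

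Counts of 11 tables were joined by gene identifier (24275 genes). Each pair of groups (18 pairs) and each interaction (4) was fitted with edgeR 4.0.16 (R 4.3.3) by the quasi-likelihood test with TMM factors and filterByExpr, on the libraries compared. This tested 14720 to 15603 genes, and the 10 genes passed the filter in every comparison. P-values were adjusted by Benjamini-Hochberg over all genes tested. Intervals are 95%, and SE is the log2 fold change divided by the square root of F. The scripts were tested on simulated data. Alternatives were DESeq2 1.42.0, library totals without TMM, no filter, no fold threshold, all libraries in 1 fit, a replicate block and leaving out libraries.

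The labels do not say whether replicates are separate cultures, so p-values measure only the spread between libraries, which may be technical. Replicate numbers were taken to pair the samples only where every pair of libraries with the same number had r over 0.1. This held in 0 of 22 comparisons. Single pairs passed 0.1 in a few comparisons, with an r of at most 0.112 (Hypoxia miR-125b against Hypoxia MC). The named genes are the 10 genes, at most 3 called genes of largest change per list and comparison, and 3 genes of like pattern each. The genes and lists were chosen with earlier results of these data known.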

Additional observations from a re-analysis of the deposited data

Results flagged for a closer look

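The difference between an isomiR and miR-125b was not the same in hypoxia and normoxia in 5 of the 40 tests of these genes. Each was an edgeR interaction test over 12 libraries with adjustment over all genes. The medium changed together with the oxygen, and their parts cannot be told apart. Of all genes, 22.7% passed the adjusted p for Trim AG, which holds 4 of the 5, and 0.966% for Trim AGU. With Trim AG these were Ccne1 (-0.85, adjusted p = 3.8e-05), Ccnd2 (0.65, adjusted p = 0.0078), Ccne2 (-0.54, adjusted p = 0.021) and Cdkn2c (-0.45, adjusted p = 0.019). With Trim AGU it was Ccne1 (-0.73, adjusted p = 0.025), which lost the adjusted p without any 1 of 9 of the 12 libraries (0.057 to 0.098). A negative value means that the isomiR was lower against miR-125b in hypoxia than in normoxia. Ccne2 and Cdkn2c were under 1.5-fold. Explanations of these differences were not tested.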

How the results depend on the processing

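None of the values that passed the adjusted p changed sign under the alternatives run. Without the fold threshold, the number of the 10 genes called against MC in hypoxia went from 0 to 7 (miR-125b), 0 to 8 (Plus A), 2 to 6 (Trim A) and 2 to 6 (Trim AG). Against miR-125b it went in hypoxia from 1 to 2 (Plus A), 0 to 2 (Trim A) and 2 to 5 (Trim AG), and in normoxia from 2 to 8 (Trim AG) and 1 to 4 (Trim AGU). Between hypoxia and normoxia it went from 5 to 9 (Plus A) and 5 to 8 (Trim AG), and for the Trim AG interaction from 2 to 4. Library totals without TMM took Trim A against MC from 2 to 1. With all libraries in 1 fit the Trim AG interaction went from 2 to 1 and that of Trim AGU from 1 to 2, which DESeq2 also gave (2). The replicate block took the Trim AGU interaction from 1 to 0, and the numbers paired the samples in 0 of 22 comparisons, so this is not read as a weaker effect.

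Leaving out 1 library against MC gave 1 to 3 genes (Trim AGU), 1 to 2 (Trim A) and 0 to 1 (Plus A). Against miR-125b in hypoxia it gave 0 to 1 for Plus A and 1 to 3 for Trim AG. Between hypoxia and normoxia it gave 5 to 6 for miR-125b and 4 to 6 for Trim AGU, and for the interactions 1 to 3 (Trim AG) and 0 to 2 (Trim AGU). Among values of single genes, 204 of 220 kept their side of the adjusted p with DESeq2, 207 with the replicate block, 186 with all libraries in 1 fit, 209 without TMM and 211 without the filter. When 1 library was left out, 1423 such values kept their side, 96 lost the adjusted p and 41 gained it. The causes were not tested.

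With 3 libraries a group, differences under 1.5-fold rest on few samples, and the scarcest of the genes (Ccne2) has the widest counting error.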

Other observations

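The authors' group means give values for Normoxia MC, whose scale is not stated and which have no SD or test here. In normoxia the ratio of Plus A to MC was 0.599 for Ccne2, 1.48 for Cdk6 and 1.35 for Cdkn2c, and these 10 genes ranged from 0.599 to 1.48. Of the E2F targets 14 of 14 were lower with Plus A (median ratio 0.650), as were 9 of 9 mitosis genes (median ratio 0.662) and 13 of 22 other genes of the G1/S switch (0.968). Normoxia Plus A includes the library labelled replicate 1 that went against its label.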
